A study of Mus musculus with 6 samples.

Results

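The TRPC channel genes were examined in lumbar dorsal root ganglia of mice with a floxed Scn9a gene, with and without an inducible Cre recombinase. The 5 genes described here, Trpc1, Trpc4, Trpc5, Trpc6 and Trpc7, were found by their NCBI gene identifiers and are 5 of the 36528 genes in the deposited count tables. All 5 passed the filter on low counts. All mice were females aged 12 to 18 weeks and homozygous for the floxed allele (Scn9a loxP/loxP), so the controls carry it as well. The knockout group was positive for pCAAG.Cre.ER (CreER-positive, n = 3), and the control group consisted of littermates negative for it (n = 3). CreER is a Cre recombinase that acts after exposure to an oestrogen receptor ligand, and CAG-type promoters are active in most cell types, so recombination need not be limited to neurons. The labels do not describe ligand dosing or the interval to dissection. Each library came from the 6 pooled L4 to L6 ganglia of 1 mouse.

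TRPC channels are calcium-permeable cation channels that open downstream of receptors coupled to phospholipase C. Trpc6 and Trpc7 encode subunits that diacylglycerol, a product of phospholipase C, opens directly. Trpc4 and Trpc5 encode close relatives that also respond to Gi/o-coupled receptors, and Trpc1 encodes a subunit that mostly works in mixed channels with them. In mouse sensory ganglia TRPC5 takes part in the response to cold, and in rat ganglia TRPC1 and TRPC6 were linked to mechanical sensitisation. Whole ganglia contain neurons, glia, vessels and connective tissue.

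Of the 5 genes, 1 rose and 2 fell in CreER-positive ganglia in edgeR quasi-likelihood fits, with p values adjusted over all genes by the Benjamini-Hochberg method. Trpc5 rose to 2.15 times its control level, Trpc4 fell by 30.8% and Trpc6 fell by 28.1%, while Trpc1 and Trpc7 did not pass. Over all 22043 tested genes the same rule called 0.726% of genes, 0.177% higher and 0.549% lower. DESeq2 and limma-voom also called these 3 genes, against 2.18% of all genes for DESeq2 (0.801% higher, 1.38% lower) and 0.721% for limma-voom (0.163% higher, 0.558% lower). The median log2 fold change was -0.09 over the 5 genes and 0.00 over all tested genes. In bulk samples, fewer cells of a type and less RNA per cell cannot be told apart. Nothing beyond separate mice is known of how the libraries were handled, so a shared preparation step cannot be told apart from the genotype.

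The starts of the 3 genes that changed are shown here, from 250 bases before to 50 bases after an annotated start. They are shown because the Trpc5 start faces another gene that comes up among the results. Sequences are those of RefSeq on GRCm38.p6, 5′ to 3′ on the strand of the gene, and all 5 members matched the table. The Trpc5 window is chrX:144688131-144688430 on the minus strand, Trpc4 is chr3:54155807-54156106 on the plus strand, and Trpc6 is chr9:8543892-8544191 on the plus strand. The full gene spans begin at 54155584 for Trpc4 and 8543867 for Trpc6. Both of these windows therefore lie inside the gene span, around a later start, and do not show the bases upstream of the gene. Capitals in Trpc5 mark the bases between its start and that of the neighbouring gene Rtl4. In Trpc4 they mark the GC box GGGCGG, searched on both strands, and the Trpc6 window holds no GC box.
Trpc5: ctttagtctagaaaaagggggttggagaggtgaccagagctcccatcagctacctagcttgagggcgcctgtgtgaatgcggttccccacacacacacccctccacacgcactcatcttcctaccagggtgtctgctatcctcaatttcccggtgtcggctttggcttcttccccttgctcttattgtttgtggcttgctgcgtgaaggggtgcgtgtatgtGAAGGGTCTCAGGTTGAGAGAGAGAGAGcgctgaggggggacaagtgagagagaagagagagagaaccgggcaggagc
Trpc4: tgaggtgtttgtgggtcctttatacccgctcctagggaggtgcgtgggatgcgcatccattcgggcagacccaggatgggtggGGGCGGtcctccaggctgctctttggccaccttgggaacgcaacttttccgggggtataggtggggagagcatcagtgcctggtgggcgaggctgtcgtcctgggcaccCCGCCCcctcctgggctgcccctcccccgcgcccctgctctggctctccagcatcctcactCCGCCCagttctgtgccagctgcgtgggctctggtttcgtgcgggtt
Trpc6: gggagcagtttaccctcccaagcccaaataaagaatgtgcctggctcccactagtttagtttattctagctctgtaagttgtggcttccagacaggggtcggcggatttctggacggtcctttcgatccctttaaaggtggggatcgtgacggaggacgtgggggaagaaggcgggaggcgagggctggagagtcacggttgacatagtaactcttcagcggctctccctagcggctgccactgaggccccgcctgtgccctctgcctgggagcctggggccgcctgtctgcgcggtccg
The GC box occurred 3 times in the Trpc4 window and 3 times in that of Trpc1, and its letters were in no window of the other members, against 35.7% of 32851 promoter windows with a match. TATAAA, searched on both strands, was present once in Trpc4 and in 13.6% of all windows. GGAAA, the core recognised by NFAT factors, was found on either strand in Trpc4 and Trpc5 (1 match each) and in Trpc7 (2 matches), and in 61.3% of all windows. The searched motifs did not overlap in these letters, and a match is a description of the sequence only. The G and C content was 66.0% in Trpc4, 63.0% in Trpc1, 60.0% in Trpc6, 55.7% in Trpc5 and 48.0% in Trpc7, with a median of 52.7% over all windows.

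Total counts per library ranged from 52309273 to 62625441 in CreER-positive mice and from 40237131 to 63332040 in controls. Scn9a, the floxed gene, had 620, 565 and 574 CPM (reads scaled to the library total after TMM correction) in CreER-positive mice and 635, 611 and 557 CPM in controls, a log2 fold change of -0.04 (edgeR adjusted p = 0.916). The counts appear to span whole gene bodies, so this value does not check the deletion. Pan-neuronal markers were present in every library, with 0 of 17 called and a summed level of 12638 to 16412 CPM in CreER-positive mice and 13055 to 14747 CPM in controls. Control replicate 2 held skeletal muscle transcripts, with a summed level of 143 CPM over 10 markers against 56.3 to 70.8 CPM in the other libraries. CreER-positive replicate 3 had the highest summed levels of macrophage markers (151 CPM against 77.1 to 103 CPM in the other libraries), endothelial markers (227 CPM against 149 to 175 CPM), fibroblast markers (3400.1 CPM against 2055 to 2687 CPM) and satellite glia markers (3387 CPM against 2604 to 2937 CPM). The same library had the lowest sum of pan-neuronal markers, 12638 CPM. In the macrophage, endothelial, fibroblast, satellite glia and Schwann cell lists, edgeR called 0 of 10 genes each, against 0.726% of all tested genes. At an unadjusted p under 0.05 by edgeR there were 0, 1, 0, 3 and 2, against 2307 of all 22043 tested genes. No marker of any cell type list was at 0 in any library. Each TRPC gene that changed is also given without control replicate 2 and CreER-positive replicate 3.

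**Figure D1:**
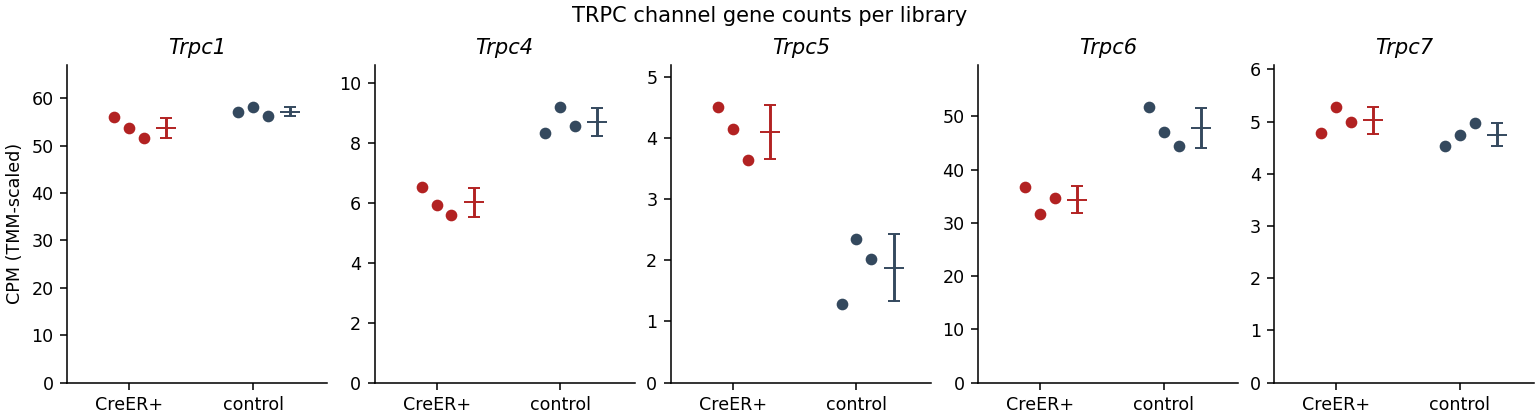
TMM-scaled CPM of each TRPC gene in the 3 CreER-positive and 3 control libraries, with group mean and SD at the right of the points; every vertical axis starts at 0. The groups do not overlap for Trpc4, Trpc5, Trpc6 and, by a narrow gap, Trpc1, and they overlap for Trpc7. Of all tested genes, 15.9% had groups that did not overlap.

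Trpc1 (NCBI gene 22063; chromosome 9, 95705072 to 95750386, minus strand), the subunit of mixed channels, gave 3357, 3298 and 2747 counts in CreER-positive libraries and 2323, 3227 and 3556 counts in controls. After scaling these were 56.0, 53.7 and 51.6 CPM in CreER-positive mice and 57.1, 58.3 and 56.2 CPM in controls. The highest CreER-positive library lay just under the lowest control library, and 15.9% of all tested genes had groups that did not overlap. Trpc1 averaged 53.8 ± 2.17 CPM in CreER-positive mice and 57.2 ± 1.01 CPM in controls (SD, n = 3 each). The estimated change was -0.09 on the log2 scale (95% interval -0.20 to 0.02, edgeR adjusted p = 0.597), and the interval includes 0.

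Trpc4 (NCBI gene 22066; chromosome 3, 54155584 to 54318471 in GRCm38.p6) gave 392, 365 and 297 counts in CreER-positive libraries and 338, 510 and 541 counts in controls. It had 6.54, 5.94 and 5.58 CPM in CreER-positive mice and 8.32, 9.21 and 8.56 CPM in controls. All CreER-positive libraries lay below all controls, the highest of them at 0.786 times the lowest control. The means were 6.02 ± 0.482 CPM in CreER-positive mice and 8.69 ± 0.462 CPM in controls (SD, n = 3 each). Its log2 fold change was -0.53 ± 0.09 (SE), with a 95% interval from -0.74 to -0.32 and an edgeR adjusted p of 0.0414. No annotated gene of the reference overlaps Trpc4. The call ended without control replicate 1 (edgeR adjusted p = 0.140), 2 (0.240) or 3 (0.158), without CreER-positive replicate 2 (0.111), and without control replicate 2 and CreER-positive replicate 3 together (0.141), while the estimate stayed between -0.64 and -0.44 in all alternatives.

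Trpc5 (NCBI gene 22067; chromosome X, 144377327 to 144688180, minus strand), the closest relative of Trpc4 in the family, moved the other way. It gave 271, 255 and 194 counts in CreER-positive libraries and 52, 130 and 128 counts in controls. This corresponded to 4.52, 4.15 and 3.65 CPM in CreER-positive mice and 1.28, 2.35 and 2.02 CPM in controls. The lowest CreER-positive library was at 1.55 times the highest control, and control replicate 1 was the lowest library. The means were 4.10 ± 0.438 CPM in CreER-positive mice and 1.88 ± 0.548 CPM in controls (SD, n = 3 each). The spread of the controls, with a coefficient of variation of 29.1%, exceeded the 13.9% that counting error alone gives for 52 counts.

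The log2 fold change of Trpc5 was 1.11 ± 0.20 (SE), with a 95% interval from 0.66 to 1.55 and an edgeR adjusted p of 0.0427. Trpc5 ranked 26th from the top by estimate among 17468 tested genes that averaged 1 CPM or more. An exact two-sided permutation test of log2 CPM gave p = 0.1, the smallest value that 20 splits of 6 libraries allow. The edgeR call ended without control replicate 1 (adjusted p 0.0738), 2 (0.0684) or 3 (0.158) and without CreER-positive replicate 1 (0.115) or 2 (0.1001). It held without control replicate 2 and CreER-positive replicate 3 together (1.36, edgeR adjusted p = 0.0457), and the lowest estimate over all alternatives was 0.91.

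Trpc6 (NCBI gene 22068; chromosome 9, 8543867 to 8680752) gave 2199, 1943 and 1843 counts in CreER-positive libraries and 2107, 2611 and 2807 counts in controls. It had 36.7, 31.6 and 34.6 CPM in CreER-positive mice and 51.8, 47.1 and 44.4 CPM in controls. The groups did not overlap, the highest CreER-positive library being at 0.826 times the lowest control. The means were 34.3 ± 2.54 CPM in CreER-positive mice and 47.8 ± 3.76 CPM in controls (SD, n = 3 each). Its log2 fold change was -0.48 ± 0.07 (SE), with a 95% interval from -0.64 to -0.31 and an edgeR adjusted p of 0.0233. An exact two-sided permutation test gave p = 0.1, again the smallest possible. The edgeR call ended without control replicate 1 (0.104) or 2 (0.112), without CreER-positive replicate 2 (0.0585), and without control replicate 2 and CreER-positive replicate 3 together (0.0926).

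Trpc7 (NCBI gene 26946; chromosome 13, 56773098 to 56895968, minus strand), the other diacylglycerol-opened member, gave 287, 325 and 266 counts in CreER-positive libraries and 184, 263 and 314 counts in controls. It had 4.79, 5.29 and 4.999 CPM in CreER-positive mice and 4.53, 4.75 and 4.97 CPM in controls, and the groups overlapped. Trpc7 averaged 5.02 ± 0.253 CPM in CreER-positive mice and 4.75 ± 0.220 CPM in controls (SD, n = 3 each). The estimated change was 0.08 on the log2 scale (95% interval -0.14 to 0.30, edgeR adjusted p = 0.845).

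**Figure D2:**
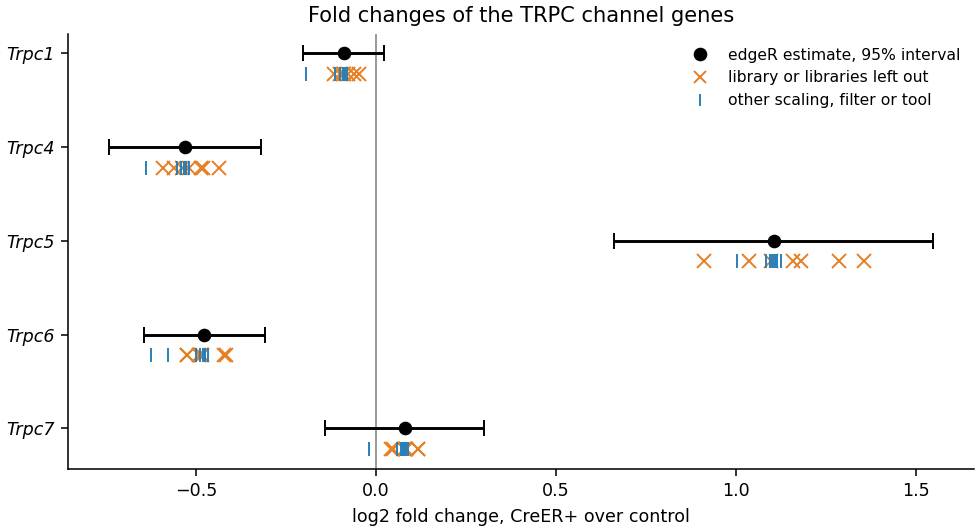
Log2 fold change of each TRPC gene, CreER-positive over control, with the edgeR estimate and 95% interval in black and the estimates under other settings below it. The intervals of Trpc4, Trpc5 and Trpc6 lie away from 0 and those of Trpc1 and Trpc7 include it; the single change of sign is Trpc7 at -0.02 when libraries were scaled by pan-neuronal markers.

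The opposite moves of Trpc5 and Trpc4 appear in their ratio within each library, which does not depend on library scaling. Counts of Trpc5 per count of Trpc4 were 0.691, 0.699 and 0.653 in CreER-positive mice and 0.154, 0.255 and 0.237 in controls. Counts of Trpc6 per count of Trpc7, the diacylglycerol-opened pair, were 7.66, 5.98 and 6.93 in CreER-positive mice and 11.5, 9.93 and 8.94 in controls. In both ratios the groups were separate, as the changes of the single genes entail.

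Of the CPM summed over the 5 genes, Trpc5 made up 3.97% ± 0.298 in CreER-positive mice and 1.57% ± 0.469 in controls (SD, n = 3 each). Trpc6 made up 33.2% ± 1.61 in CreER-positive mice and 39.7% ± 2.11 in controls. Trpc1 held the largest share in both groups, 52.1% ± 1.06 in CreER-positive mice and 47.6% ± 1.03 in controls. These are shares of CPM not corrected for gene length. Trpc1 itself had a log2 fold change of -0.09, so its larger share is not a rise of Trpc1. The summed level was 108, 101 and 100.5 CPM in CreER-positive mice and 123, 122 and 116 CPM in controls. The rise of Trpc5 therefore added little to the sum, which lay below the controls in every CreER-positive library.

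Levels of different genes were compared per kilobase (kb) of gene width, the full span that was deposited with the counts. In CreER-positive mice the order was Trpc1 (1.19 ± 0.0480 CPM per kb), Trpc6 (0.251 ± 0.0186), Trpc7 (0.0409 ± 0.00206), Trpc4 (0.0371 ± 0.00297) and Trpc5 (0.0134 ± 0.00143; SD, n = 3 each). In controls it was Trpc1 (1.26 ± 0.0223 CPM per kb), Trpc6 (0.349 ± 0.0275), Trpc4 (0.0535 ± 0.00284), Trpc7 (0.0386 ± 0.00179) and Trpc5 (0.00615 ± 0.00179). On this scale the libraries of Trpc4 and Trpc7 overlapped in CreER-positive mice and were separate in controls, with Trpc4 above Trpc7.

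The order depends on the length used, because annotated exons make up 17.7% of the width of Trpc1 but 1.64% of that of Trpc5. Per kb of annotated exons, Trpc6 stood first in controls at 9.43 ± 0.742 CPM per kb, above Trpc1 at 7.13 ± 0.126. In CreER-positive mice the libraries of Trpc6 and Trpc1 overlapped, at 6.77 ± 0.501 and 6.69 ± 0.271 CPM per kb of exons. On the same scale Trpc5 (0.819 ± 0.0874) and Trpc4 (0.749 ± 0.0600) overlapped in CreER-positive mice. Trpc7 stood above Trpc4 per kb of exons in both groups, at 1.30 ± 0.0652 CPM per kb in CreER-positive mice and 1.22 ± 0.0567 CPM per kb in controls, with separate libraries in each group. In controls the exon-based value of Trpc5 was 0.376 ± 0.109 CPM per kb and that of Trpc4 was 1.08 ± 0.0575 CPM per kb. How many of the counted reads fall in exons is not known.

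**Figure D3:**
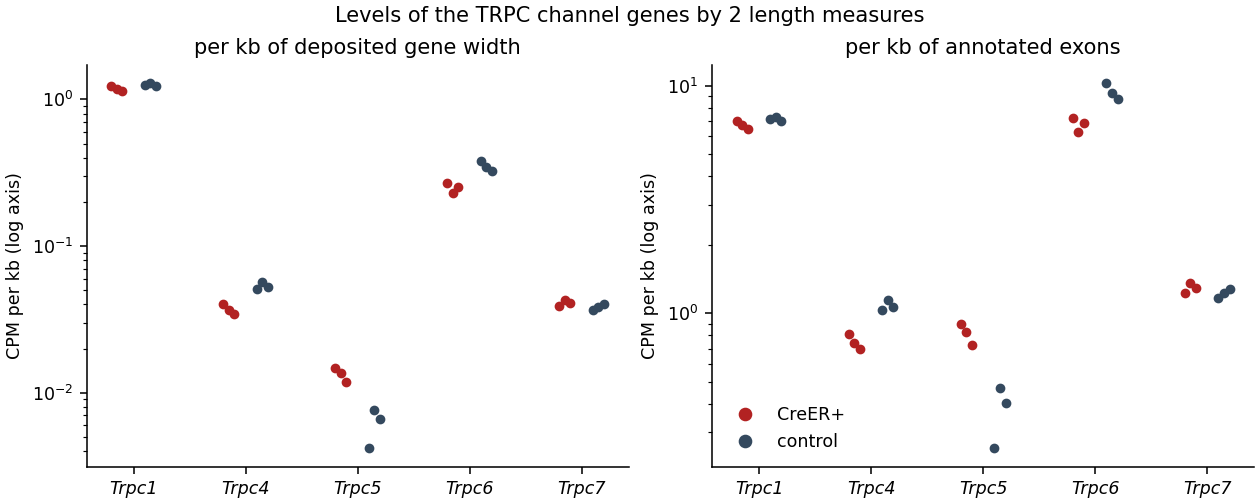
CPM per kb of deposited gene width (left) and of annotated exons (right) for each library, CreER-positive left of control, on log axes. Trpc1 leads by span. By exons Trpc6 leads in controls and overlaps Trpc1 in CreER-positive libraries. Trpc5 is lowest in controls on both scales.

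Trpc5 lies head to head with Rtl4, a gene derived from a retrotransposon Gag sequence, whose RefSeq start on the plus strand is 29 bases from the start of Trpc5. Rtl4 had 7.99, 7.37 and 6.69 CPM in CreER-positive mice and 3.20, 5.13 and 4.10 CPM in controls, and the groups did not overlap. Its log2 fold change was 0.82 ± 0.16 (SE), with an edgeR adjusted p of 0.0560, which did not pass. DESeq2 (adjusted p 7.62e-05) and limma-voom (adjusted p 0.0486) called it, and leaving out single libraries gave edgeR adjusted p values from 0.0328 to 0.216. Without control replicate 2 and CreER-positive replicate 3 together it passed (edgeR adjusted p = 0.0286). Alg13, the nearest gene on the other side of Trpc5, averaged 17.6 CPM in CreER-positive mice and 17.5 CPM in controls (0.01, edgeR adjusted p = 0.980).

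The deposited width of Rtl4 is 20341 bases longer than its RefSeq span, so the gene model behind the counts may reach into Trpc5. That of Trpc5, 306510 bases, is shorter than its RefSeq span of 310854, so its counted start may differ from the RefSeq one. Whether the genes share reads was not tested. Trpc5 counts per count of Rtl4 were 0.566, 0.563 and 0.545 in CreER-positive mice and 0.400, 0.458 and 0.494 in controls. Within Trpc5 lies Trpc5os, an opposite-strand gene, with 2, 2 and 1 counts in CreER-positive libraries and 0, 2 and 2 counts in controls. A pseudogene inside Trpc5, Mageb16-ps1, had 0 counts in every library.

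Trpc6 overlaps the lncRNA gene Gm32014 on the opposite strand by 36675 bases. Gm32014 runs from 8644078 to 8740988, so part of it lies beyond the end of Trpc6 at 8680752. Gm32014 gave 1662, 1442 and 1398 counts in CreER-positive libraries and 1540, 1931 and 1981 counts in controls, equal to 74.2% to 75.9% of the Trpc6 counts in CreER-positive libraries and 70.6% to 74.0% in controls. Its log2 fold change was -0.42 ± 0.08 (SE; edgeR adjusted p = 0.0684). DESeq2 called Gm32014 (adjusted p 0.00128), and leaving out single libraries gave edgeR adjusted p values from 0.0488, without CreER-positive replicate 3, to 0.288. Without a known strand setting, reads of the overlap cannot be assigned to either gene. An extreme case takes every Gm32014 read as also counted for Trpc6, though part of Gm32014 lies outside Trpc6. The remainder of Trpc6 would then be 8.96, 8.15 and 8.36 CPM in CreER-positive mice and 13.9, 12.3 and 13.1 CPM in controls. A fit with this remainder in place of Trpc6, chosen after the values were seen, gave a log2 fold change of -0.62 ± 0.08 (SE; edgeR adjusted p = 0.00783). It is not a separate test of Trpc6, because reads from outside the overlap were also taken off.

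**Figure D4:**
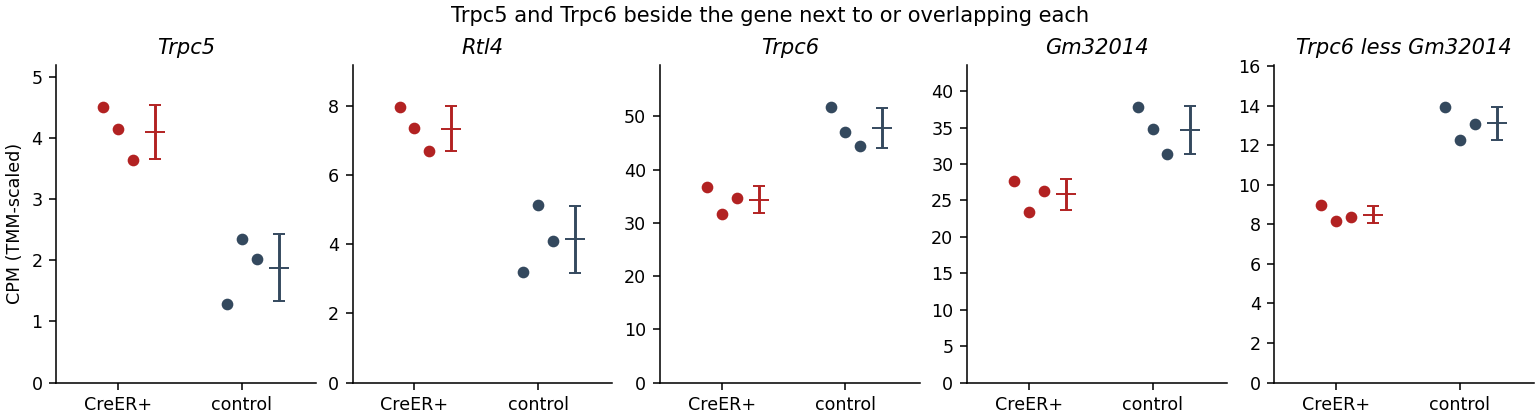
TMM-scaled CPM per library of Trpc5 and the adjacent Rtl4, and of Trpc6, the overlapping Gm32014 and their difference, with group mean and SD; every axis starts at 0. The groups are separate in all 5 panels, with CreER-positive libraries above controls for Trpc5 and Rtl4 and below them for the other panels. Groups did not overlap for 15.9% of all tested genes. The panels are not independent, because the difference is computed from Trpc6 and Gm32014. Whether Trpc5 shares reads with Rtl4, or Trpc6 with Gm32014, was not tested.

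Trpc6 is also known from smooth muscle, so markers of vascular mural cells were read beside it. Their summed level was 214 to 227 CPM in CreER-positive mice and 236 to 258 CPM in controls over 10 genes, none of them at 0 in any library. Of the 10, edgeR called 0 higher and 1 lower, against 0.177% and 0.549% of all tested genes. Estimates were positive for 6 of the 10, the highest at 0.77. The gene called lower was Rgs5, a regulator of G protein signalling (-0.41, edgeR adjusted p = 0.0341). It had 116, 111 and 104 CPM in CreER-positive mice and 157, 148 and 136 CPM in controls. The Rgs5 call ended without control replicate 1 (edgeR adjusted p = 0.180), 2 (0.183) or 3 (0.0600), without CreER-positive replicate 1 (0.0657) or 2 (0.0788), and without control replicate 2 and CreER-positive replicate 3 together (0.104). Without Rgs5, left out after its values were seen, the sum was 97.7 to 123 CPM in CreER-positive mice and 99.3 to 108 CPM in controls, and the groups overlapped. The median log2 fold change of the 10 markers was 0.09, and their part in the Trpc6 result was not tested.

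Genes that act before and beside TRPC channels were counted in 4 lists, chosen with earlier results of these data known. Calls by edgeR or DESeq2 were found in 1 of them, the Gq-coupled receptors. Over all genes edgeR called 0.726% and DESeq2 2.18%, so 0 calls in lists of this size do not set them apart. An unadjusted p under 0.05 by edgeR was found for 2307 of the 22043 tested genes. Of 17 genes for Gq proteins, phospholipases C and IP3 receptors, 0 were called by edgeR or DESeq2 and 0 had an unadjusted p under 0.05 by edgeR, with a median log2 fold change of -0.01. The smallest p values belonged to the phospholipase genes Plcb4 (-0.13), Plcd4 (-0.16) and Plcb1 (0.10), with edgeR adjusted p values of 0.522, 0.522 and 0.590. Of 7 genes of store-operated calcium entry, the route opened by emptied calcium stores, 0 were called by edgeR or DESeq2 and 1 had an unadjusted p under 0.05 by edgeR, with a median of 0.06. That gene was Orai3, a pore subunit, at 16.5 ± 0.388 CPM in CreER-positive mice and 14.3 ± 1.23 CPM in controls (SD, n = 3 each; edgeR adjusted p = 0.388). The store sensor gene Stim2 (0.12, edgeR adjusted p = 0.552) and the pore gene Orai2 (0.13, 0.718) came next.

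Of 20 genes for proteins that bind or regulate TRPC channels, 0 were called by edgeR or DESeq2. Over all genes these called 0.726% and 2.18%, and the median log2 fold change of the list was 0.00. At an unadjusted p under 0.05 by edgeR there were 4, against 2307 of all 22043 tested genes. The kinase gene Fyn had 92.4 ± 1.04 CPM in CreER-positive mice and 102 ± 0.906 CPM in controls (SD, n = 3 each), a log2 fold change of -0.15 (edgeR adjusted p = 0.288). Fkbp4, an immunophilin gene, had 0.25 (edgeR adjusted p = 0.332), and Sestd1, which encodes a phospholipid-binding partner of TRPC4 and TRPC5, had -0.16 (0.412). Fkbp4 passed without CreER-positive replicate 3 (edgeR adjusted p = 0.0388), where calls over all genes were at 2.45%. It did not pass without any other single library (edgeR adjusted p from 0.374 to 0.792).

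Of 27 genes for Gq-coupled receptors, 26 were tested, 2 rose and 1 fell by edgeR, and the median log2 fold change was 0.12. Over all tested genes edgeR called 0.177% higher and 0.549% lower. DESeq2 called 4 genes of the list, against 2.18% of all genes, with P2ry1 and Chrm3 among them (adjusted p 4.22e-14 and 0.00246). It gave no adjusted p for Cckbr. Next in the list by edgeR p were Htr2a (-0.51, edgeR adjusted p = 0.0506) and Adra1d (0.67, 0.108), which did not pass. P2ry1, a receptor for ADP, fell to 105, 91.5 and 77.2 CPM in CreER-positive mice, against 177, 169 and 155 CPM in controls. Its log2 fold change was -0.87 ± 0.10 (SE; edgeR adjusted p = 0.00581), the groups were separate, and the call held without any single library (edgeR adjusted p from 0.00211 to 0.0398). Chrm3, a muscarinic acetylcholine receptor gene, rose to 3.71 ± 0.317 CPM in CreER-positive mice, against 2.24 ± 0.262 CPM in controls (SD, n = 3 each; 0.73, edgeR adjusted p = 0.04997). Cckbr, a cholecystokinin receptor gene, rose on low levels of 0.317, 0.439 and 0.658 CPM in CreER-positive mice, against 0.0492, 0.0903 and 0.0633 CPM in controls (2.72, edgeR adjusted p = 0.0221). Without control replicate 1, 2 or 3, Chrm3 (0.222, 0.115 and 0.182) and Cckbr (0.109, 0.0983 and 0.134) did not pass, nor did Chrm3 without CreER-positive replicate 1 (0.0918) or 2 (0.1001). Without control replicate 2 and CreER-positive replicate 3 together, P2ry1 passed (edgeR adjusted p = 0.0192), and Chrm3 (0.0929) and Cckbr (0.0802) did not.

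**Figure D5:**
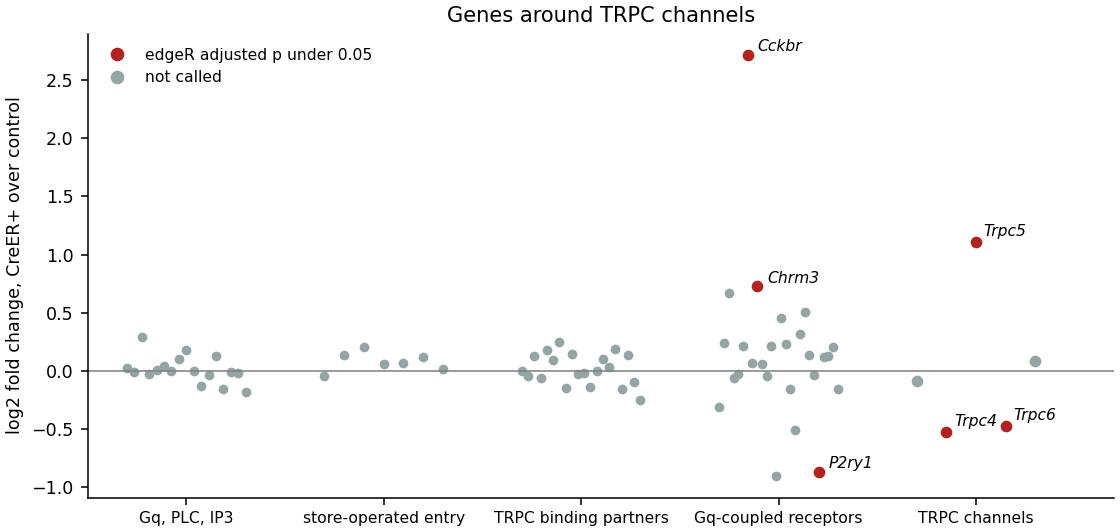
Log2 fold change, CreER-positive over control, of each tested gene in 4 lists around TRPC signalling and of the 5 TRPC genes, with genes at an edgeR adjusted p under 0.05 in red and named. Most points lie near 0, and the named genes are P2ry1, Chrm3, Cckbr, Trpc4, Trpc5 and Trpc6.

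The genes whose pattern over the 6 libraries was most like that of each member were taken by the Pearson correlation of log2 CPM among 16371 other genes. For Trpc5 they were Rad9a (r = 0.995), Rtl4 (0.994) and Myt1 (0.993), and 56 genes reached 0.95. For Trpc6 they were Rgs10 (r = 0.995), Ano3 (0.994) and Sdcbp (0.994), and 175 genes reached 0.95. Of these 6 genes, Rgs10 (-0.38, edgeR adjusted p = 0.0373) and Ano3 (-0.43, 0.0398) also fell. Both calls ended without any 1 library other than CreER-positive replicate 3 (edgeR adjusted p from 0.0639 to 0.233), and without that library and control replicate 2 together (Rgs10 0.0873, Ano3 0.0767). For Trpc4 they were Pigl (r = 0.998), Gm14317 (0.992) and Mastl (0.992), of which Gm14317 fell (-1.80, edgeR adjusted p = 0.00692), a call that ended without control replicate 2 (edgeR adjusted p = 0.0508). Trpc1 was closest to Rabep1 (0.993), Prkca (0.990) and Zfp827 (0.989), and Trpc7 to Ptger4 (0.997), Mir6904 (0.993) and Mir702 (0.990). These values describe the 6 libraries only, whose points share library and genotype.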

How the data were processed

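Per the labels' protocols, total RNA of the L4 to L6 ganglia of 1 mouse per library was sequenced. The submitters' processing notes name GSNAP and GRCm38 (mm10), but no counting tool, gene annotation or strand setting. Each deposited table lists, per the file headers, the count of reads, the width and the RPKM of 36528 genes, as made by the authors. The deposited RPKM were not tested. The deposited width lies within 5% of the full RefSeq span for 77.7% of matched genes, so counts may include introns, and long genes then collect unspliced reads. Symbols were found for 31049 genes, and the others held 1.91% of counts.

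Genes were filtered with filterByExpr and tested with edgeR 4.0.16 (quasi-likelihood, TMM, trended dispersion, R 4.3.3). Benjamini-Hochberg adjustment covered all 22043 tested genes, with calls at 0.05. SE is the estimate divided by the square root of F. DESeq2 1.42.0, limma-voom (limma 3.58.1), other scalings and filters and left-out libraries were alternatives. The edgeR step was tested on simulated data. Members and lists were chosen with earlier results of these data known. Genes named were the members, genes that overlap or adjoin them, and the 3 most alike in pattern. From each list, genes that edgeR called or that had the 3 smallest p values were named. Scn9a, Rgs5, Alg13, Htr2a and Adra1d were named in addition.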

Additional observations from a re-analysis of the deposited data

How the results depend on the processing

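The rise of Trpc5 and the falls of Trpc4 and Trpc6 kept their direction in every alternative run, and their calls held with total counts, upper-quartile or DESeq2 size factors as scaling, with both other count filters, with DESeq2, with limma-voom and a common dispersion (added after seeing the data). Scaling by pan-neuronal markers moved the median of all genes to -0.10 and called 75 genes (8 higher, 67 lower). Under it Trpc4 (-0.64, edgeR adjusted p = 0.211), Trpc5 (1.004, 0.121) and Trpc6 (-0.58, 0.222) were not called and Trpc7 reversed to -0.019; the cause was not tested. All genes called numbered 160 (39 higher, 121 lower). They numbered 254 without a count filter (83 higher), where more genes were tested, and 425 with DESeq2 (156 higher, 269 lower). Leaving out single libraries gave 60 to 549 calls (8 to 320 higher, 52 to 229 lower). With fewer samples in these fits, log2 fold changes ran from -0.59 to -0.48 for Trpc4, 0.91 to 1.29 for Trpc5 and -0.53 to -0.42 for Trpc6. Without control replicate 2 and CreER-positive replicate 3 together, 107 genes were called (31 higher, 76 lower), Trpc4 had -0.44 and Trpc6 -0.49. Calls among the 26 tested Gq-coupled receptor genes ranged from 1 to 6, with 6 without CreER-positive replicate 3, where calls over all genes were at 2.45%. The order of levels per kb differed between full span and annotated exons. No paired analysis was possible because the labels give no replicate numbers that link the groups. With 52 to 541 counts per library, Trpc4, Trpc5 and Trpc7 carry more counting error than Trpc1 and Trpc6.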

Other observations

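The nearest tested genes on either side of the other members, leaving out genes that overlap them, did not pass by edgeR. At 40.8 kb from Trpc4, the matrix protein gene Postn averaged 58.8 CPM in CreER-positive mice and 48.4 CPM in controls (0.28, edgeR adjusted p = 0.750). On its other side Gm31026, 212 kb away, had -0.03. At 218 kb from Trpc6, the progesterone receptor gene Pgr averaged 12.0 CPM in CreER-positive mice and 13.6 CPM in controls (-0.18, edgeR adjusted p = 0.612). Cep126, 409 kb away on the other side, had 0.02. Beside Trpc1, Pls1 had 0.02 and Pcolce2 0.09. Around Trpc7, Smad5 had 0.05 at 30.7 kb and Gm33140 had -0.45 at 97.7 kb (edgeR adjusted p = 0.628). These neighbours were looked up after the members' values were seen.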
